A study of Mus musculus with 15 samples.

Results

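The genes described here are the plasminogen activators Plat and Plau, the urokinase receptor Plaur, and the serpins Serpine2, Serpinb2, Serpinb5 and Serpinf1, chosen by gene symbol. The choice was made with earlier results of these data known. A gene was read from its brightest probe set among those annotated with that symbol alone. By this rule 6 of the 7 were found among 19937 genes, each with a single probe set. They were Plat (10570855), Plau (10413047), Plaur (10550906), Serpinb2 (10349157), Serpinb5 (10349108) and Serpinf1 (10388430). Serpine2 was not analysed here.

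The study measured transcript levels on 15 arrays, 3 for each of 5 lines of 4T1 cells, a metastatic mouse mammary carcinoma line. In all lines but the parental one, endogenous Twist1, a helix-loop-helix transcription factor of epithelial-mesenchymal transition, had been depleted. The S42D line carried depletion plus Twist1 with aspartate at serine 42, the S42A line depletion plus Twist1 with alanine there, and the wild-type Twist1 line depletion plus unaltered Twist1. Tw1KD cells had the depletion alone, and parental 4T1 cells were the control. Each state was seen in 1 line, so an effect of depletion or of a construct cannot be told apart from other differences between lines. A rise or fall on depletion or with a construct means here a difference between lines. The labels give 1 medium for every sample, parental cells included, with puromycin and G418 added. The title sets the identity of the S42D samples, because their genotype field lists both substitutions. The means of depletion and of re-expression, whether a line is a clone, and whether replicates were separate cultures are not given in the sources used here, and p-values here reflect no more than the variation among these arrays, which may be technical.

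Plat encodes tissue-type and Plau urokinase-type plasminogen activator, serine proteases that cut plasminogen into plasmin, which digests fibrin and matrix proteins. Urokinase acts at the cell surface, where the receptor encoded by Plaur, a glycolipid-anchored protein, holds it. Serpins are protease inhibitors that trap their target in a covalent complex: Serpinb2 (plasminogen activator inhibitor type 2) and Serpine2 (protease nexin) inhibit plasminogen activators, while Serpinb5 (maspin) and Serpinf1 (pigment epithelium-derived factor) are family members that do not inhibit proteases in the usual way. Urokinase and its receptor are known for their part in tumour cell invasion, maspin as a product of normal mammary epithelium, and Serpinf1 as a secreted inhibitor of blood vessel growth.

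All values are log2 intensities, and a difference is called where limma's moderated test, fitted to all 15 arrays and adjusted over all genes by the Benjamini-Hochberg method, gave an adjusted p under 0.05. Differences are given with their standard error, levels with their standard deviation, and n = 3 arrays per line throughout; with arrays, this number limits the precision. Over all genes, arrays of the same line correlated at 0.997 to 0.999 and arrays of different lines at 0.975 to 0.987. A line mean under 5.50, in the lowest 25% of all line means, is called dim here, and folds against a dim line are understated. The Twist1 probe set lay between 8.96 and 9.07 in S42D cells, 8.60 and 8.80 in S42A cells, 8.16 and 8.49 in wild-type Twist1 cells, 7.23 and 7.47 in Tw1KD cells and 9.01 and 9.07 in parental cells; whether it reads the introduced transcripts is not known. Of 8 epithelial markers of the mammary carcinoma label, the keratin gene Krt8 had line means of 12.89 to 13.18, while Epcam averaged 5.63 in S42D, 5.55 in S42A and 5.66 in wild-type Twist1 cells, against 9.76 in Tw1KD and 8.36 in parental cells. With wild-type Twist1 against Tw1KD, 7 of the 8 were called lower and Krt8 higher (0.29), where 24.5% of all genes were called lower and 23.5% higher. The median difference of the 8 was -2.02, against -0.061 over all genes. With S42D against Tw1KD, 4 of the 8 were called lower, 2 higher and 2 were not called, where 21.7% of all genes were called in each direction. Esr1 averaged 8.89 in S42D and 8.07 in Tw1KD cells, and Krt7 11.73 and 11.79.

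Plat was lower in Tw1KD than in parental cells, near the parental level with wild-type Twist1, at a level in between with S42A, and above the parental level with S42D. Its values were 10.54, 10.53 and 10.48 in S42D cells, 8.26, 8.29 and 8.29 in S42A cells and 9.36, 9.36 and 9.36 in wild-type Twist1 cells, against 7.30, 6.84 and 7.30 in Tw1KD cells and 9.56, 9.52 and 9.61 in parental cells. No array of any line overlapped with those of another line, and the lowest single value was Tw1KD replicate 2. The fall in Tw1KD against parental cells was 2.41 ± 0.091, a 5.33-fold change (adjusted p = 7.0e-11), and ranked 67 by size among all genes. Against Tw1KD, Plat rose by 2.21 ± 0.091 with wild-type Twist1 (4.63-fold), by 1.13 ± 0.091 with S42A (2.19-fold) and by 3.37 ± 0.091 with S42D (10.4-fold). The line means spanned 3.37, more than those of all but 147 genes. In RNA from whole cultures, fewer cells with a transcript and less of it per cell cannot be told apart.

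Against parental cells, Plat was higher in S42D cells by 0.96 ± 0.091 (adjusted p = 1.1e-06) and lower in S42A cells by 1.28 ± 0.091 (adjusted p = 4.2e-08). In the wild-type Twist1 line the difference from parental cells was -0.20 ± 0.091 and was not called (adjusted p = 0.083, unadjusted 95% interval -0.40 to -0.0060). It was called lower with quantile normalization (-0.29, adjusted p = 0.029), cyclic loess (-0.28, adjusted p = 0.0091), array weights (adjusted p = 0.0067) and a fit of these lines alone (adjusted p = 0.0035). Of the endothelial markers, Cdh5 was also highest in S42D cells (10.67, against 7.26 or less in the others), and the summed level of the 5 markers was 10.77 to 10.81 there and 7.51 to 8.28 elsewhere. The other 4, Pecam1, Tek, Kdr and Emcn, lay between 4.30 and 5.60 in every line and each moved by at most 0.19 between lines. The part of these markers in the result was not tested.

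**Figure D1:**
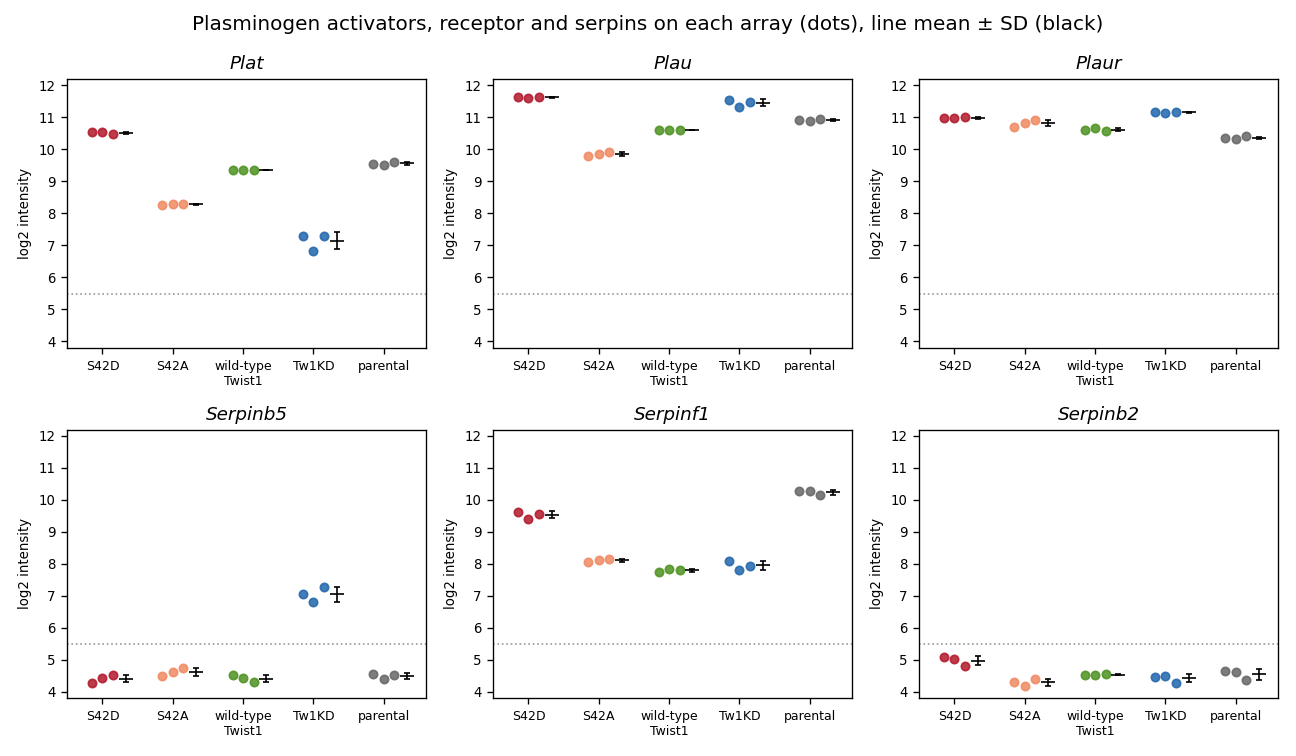
Log2 intensity (y axis) of the 6 measured genes on each array, in the S42D, S42A, wild-type Twist1, Tw1KD and parental lines; dots are the 3 arrays, black bars the line mean ± SD, and the dotted line the limit of 5.50 below which a line mean is called dim. Plat is lowest in Tw1KD cells, Serpinb5 lies above the dotted line in Tw1KD cells alone, and Serpinb2 lies below it in every line.

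Plau did not follow Plat. It was higher in Tw1KD than in parental cells, lower than Tw1KD in the wild-type and S42A lines, and highest in S42D cells. Its values were 11.64, 11.62 and 11.63 in S42D cells, 9.80, 9.85 and 9.91 in S42A cells and 10.62, 10.61 and 10.62 in wild-type Twist1 cells, against 11.56, 11.33 and 11.48 in Tw1KD cells and 10.91, 10.90 and 10.94 in parental cells. The 5 lines formed 5 separate groups of arrays. Plau rose by 0.54 ± 0.050 in Tw1KD against parental cells (1.46-fold, adjusted p = 7.5e-07), where Plat fell. It fell against Tw1KD by 0.84 ± 0.050 with wild-type Twist1, and S42A gave a 3.04-fold fall, -1.60 ± 0.050 (adjusted p = 5.1e-12).

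With S42D, Plau was 0.17 ± 0.050 above Tw1KD (adjusted p = 0.011). That call was lost with median centring (0.13, adjusted p = 0.079), with quantile normalization (0.078, adjusted p = 0.11) and with these lines fitted alone (adjusted p = 0.074). It was kept at 0.10 with array weights and at 0.11 without Tw1KD replicate 2. Against parental cells, Plau was higher in S42D cells (0.72 ± 0.050) and lower in S42A cells (-1.06 ± 0.050) and in wild-type Twist1 cells (-0.30 ± 0.050, and -0.20 with median centring).

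Plaur was above the parental level in all 4 derived lines and highest in Tw1KD cells, over a narrower range than its ligand's gene. Its values were 10.97, 10.97 and 11.02 in S42D cells, 10.72, 10.83 and 10.93 in S42A cells and 10.61, 10.66 and 10.59 in wild-type Twist1 cells, against 11.16, 11.15 and 11.16 in Tw1KD cells and 10.35, 10.32 and 10.41 in parental cells. Every line's arrays were apart from those of every other line. Plaur rose by 0.80 ± 0.049 in Tw1KD against parental cells (1.74-fold, adjusted p = 1.2e-08). Against Tw1KD it fell by 0.54 ± 0.049 with wild-type Twist1, by 0.33 ± 0.049 with S42A and by 0.17 ± 0.049 with S42D. Of 7 leukocyte markers, Cd68 was also above the parental level in every derived line, with arrays at 10.66 to 10.73 in S42D cells, 10.24 to 10.30 in S42A cells and 9.77 to 9.83 in wild-type Twist1 cells, against 10.32 to 10.48 in Tw1KD and 8.43 to 8.56 in parental cells. Their summed level was 10.89 to 10.97 in S42D cells, 10.56 to 10.60 in S42A cells, 10.16 to 10.18 in wild-type Twist1 cells, 10.63 to 10.74 in Tw1KD and 9.30 to 9.41 in parental cells. The other 6 lay between 4.69 and 6.83, and the part of these markers in the result was not tested.

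The receptor gene stayed above parental cells by 0.63 ± 0.049 in S42D cells (1.54-fold), by 0.47 ± 0.049 in S42A cells (1.38-fold) and by 0.26 ± 0.049 in wild-type Twist1 cells (1.20-fold, adjusted p = 0.00048). The last of these was 0.14 with quantile normalization and 0.15 with cyclic loess, and was called under both. The levels of Plaur over the lines therefore ran in the order Tw1KD, S42D, S42A, wild-type Twist1, parental, each neighbour called different, although the call of S42D against S42A (0.16) was lost under 4 alternatives. Plau and Plaur shared a rise in Tw1KD cells but not their order over the lines: the S42A line had the lowest Plau and the third highest Plaur.

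Serpinb5 was detected above the dim range in Tw1KD cells alone. Its values were 4.29, 4.44 and 4.52 in S42D cells, 4.50, 4.63 and 4.76 in S42A cells and 4.52, 4.44 and 4.30 in wild-type Twist1 cells, against 7.05, 6.81 and 7.29 in Tw1KD cells and 4.57, 4.39 and 4.53 in parental cells. The 3 Tw1KD arrays stood above the 12 others, which overlapped with each other. Against parental cells the rise in Tw1KD was 2.55 ± 0.11, or 5.87-fold (adjusted p = 2.0e-10), and it ranked 55 by size among all genes. Serpinb5 fell against Tw1KD with each construct, with differences of -2.63 ± 0.11 for S42D, -2.42 ± 0.11 for S42A and -2.63 ± 0.11 for wild-type Twist1. In none of the 6 comparisons among the other 4 lines was Serpinb5 called by limma (differences from -0.22 to 0.21, adjusted p from 0.14 to 1.0; none had an unadjusted p under 0.05), and the 95% intervals lay within -0.45 to 0.44. S42D against S42A (-0.22) was called with median centring (-0.29, adjusted p = 0.047) and with array weights (adjusted p = 0.019), and S42A against wild type (0.21) with array weights (adjusted p = 0.0078).

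Twist1 is known to bind E-boxes, the motif CANNTG. The promoter windows of Serpinb5, with the largest rise of the 6 genes on depletion, and of Serpinf1, which was not called higher with wild-type Twist1 than in Tw1KD cells, are shown from RefSeq on build GRCm38.p6, from 250 bases before to 50 bases after the start of the gene, with each CANNTG in capitals.
Serpinb5, chr1:106860925-106861224, plus strand: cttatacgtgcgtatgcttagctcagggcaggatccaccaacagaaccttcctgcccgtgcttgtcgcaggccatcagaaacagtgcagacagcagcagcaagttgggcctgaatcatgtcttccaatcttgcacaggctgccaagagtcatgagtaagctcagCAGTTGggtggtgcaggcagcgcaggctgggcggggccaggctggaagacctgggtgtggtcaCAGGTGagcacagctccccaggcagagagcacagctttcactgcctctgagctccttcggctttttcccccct
Serpinf1, chr11:75422574-75422873, minus strand: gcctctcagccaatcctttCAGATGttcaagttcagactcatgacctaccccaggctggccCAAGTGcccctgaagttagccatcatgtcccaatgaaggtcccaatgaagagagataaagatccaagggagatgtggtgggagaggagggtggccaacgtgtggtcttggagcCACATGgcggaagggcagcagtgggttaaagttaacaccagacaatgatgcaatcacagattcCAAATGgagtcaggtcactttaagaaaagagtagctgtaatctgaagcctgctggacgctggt

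The Serpinb5 window held 2 such motifs and the Serpinf1 window 4, read on both strands, with no overlap between them. CANNTG occurs in 72.3% of the 32851 windows of this length in the table, with a median of 1 per window. Of its forms, CATATG was in neither window (3.91% of all windows), CAGCTG was in neither (16.3%), and CATCTG or its reverse complement CAGATG was in the Serpinf1 window once (17.2%). The window of Plaur, which also rose on depletion, and both Serpinb2 windows held no CANNTG. The Serpine2 window held 1, of the form CATCTG. Windows were at hand for 5 of the 7 listed genes, and Plat and Plau had none, so their promoters were not read. These matches describe the letters of the windows and say nothing of binding.

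Serpinf1 fell on depletion, was not called different from Tw1KD with wild-type Twist1 or S42A, and rose with S42D to a level below that of parental cells. Its values were 9.63, 9.41 and 9.56 in S42D cells, 8.07, 8.11 and 8.17 in S42A cells and 7.75, 7.85 and 7.80 in wild-type Twist1 cells, against 8.08, 7.82 and 7.95 in Tw1KD cells and 10.29, 10.29 and 10.15 in parental cells. The S42D and parental arrays stood apart from all others, while Tw1KD overlapped with both the S42A and the wild-type lines. The fall in Tw1KD against parental cells was 2.29 ± 0.071, or 4.90-fold (adjusted p = 8.4e-12). With S42D it rose by 1.58 ± 0.071 over Tw1KD (2.99-fold, adjusted p = 2.2e-10) and remained 0.71 ± 0.071 below parental cells, a difference of -0.71 (adjusted p = 1.7e-06).

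With wild-type Twist1 the difference of Serpinf1 from Tw1KD was -0.15 ± 0.071 (adjusted p = 0.094, interval -0.30 to 0.00045), and with S42A it was 0.16 ± 0.071 (adjusted p = 0.079, interval 0.013 to 0.32). The wild-type comparison was called lower with array weights (-0.23, adjusted p = 0.0045) and without Tw1KD replicate 2 (-0.22, adjusted p = 0.023). The S42A comparison was called higher with median centring (0.20, adjusted p = 0.047), with quantile normalization (0.19, adjusted p = 0.025) and without Tw1KD replicate 1 (0.23, adjusted p = 0.018). Serpinf1 is made by many fibroblasts, and the fibroblast marker Pdgfra was also highest in S42D and parental cells, though not in the same order. Pdgfra averaged 11.38 in S42D cells, 10.85 in S42A cells, 9.83 in wild-type Twist1 cells, 9.60 in Tw1KD and 11.29 in parental cells. In S42A cells it stood above Tw1KD, from which Serpinf1 was not called different there. The summed level of the 7 fibroblast markers was 11.64 to 11.75 in S42D cells, 11.26 to 11.32 in S42A cells, 10.54 to 10.59 in wild-type Twist1 cells, 10.43 to 10.56 in Tw1KD and 11.62 to 11.70 in parental cells. Dcn, a matrix proteoglycan gene, had arrays at 6.07 to 6.46 in S42D cells, 5.84 to 5.87 in S42A cells and 5.27 to 5.50 in wild-type Twist1 cells, against at most 5.52 in Tw1KD and 5.91 to 6.09 in parental cells. Apart from Pdgfra, these markers lay between 3.66 and 7.71 and moved by up to 0.84 between lines, with Lum dim in every line, and their part in the result was not tested.

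Serpinb2 stayed in the dim range in all 5 lines. Its values were 5.10, 5.03 and 4.81 in S42D cells, 4.32, 4.19 and 4.40 in S42A cells and 4.53, 4.53 and 4.55 in wild-type Twist1 cells, against 4.48, 4.51 and 4.28 in Tw1KD cells and 4.65, 4.63 and 4.36 in parental cells. The S42D arrays were above those of every other line, and the arrays of the other 4 lines lay between 4.19 and 4.65. S42D exceeded Tw1KD by 0.56 ± 0.092 (adjusted p = 0.00015), S42A by 0.68 ± 0.092, the wild-type Twist1 line by 0.44 ± 0.092 and parental cells by 0.43 ± 0.092 (adjusted p = 0.0018). In Tw1KD the difference from parental cells was -0.12 ± 0.092 (adjusted p = 0.35). The S42A line was called lower than parental cells (-0.25 ± 0.092, adjusted p = 0.047) although their arrays overlapped, and the call was lost with median centring (-0.16, adjusted p = 0.17), quantile normalization, cyclic loess, all probe sets tested and these lines fitted alone. It was also lost without parental replicate 1 or 2 or S42A replicate 1 or 2 (adjusted p from 0.081 to 0.18), and the value was -0.37 with array weights.

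**Figure D2:**
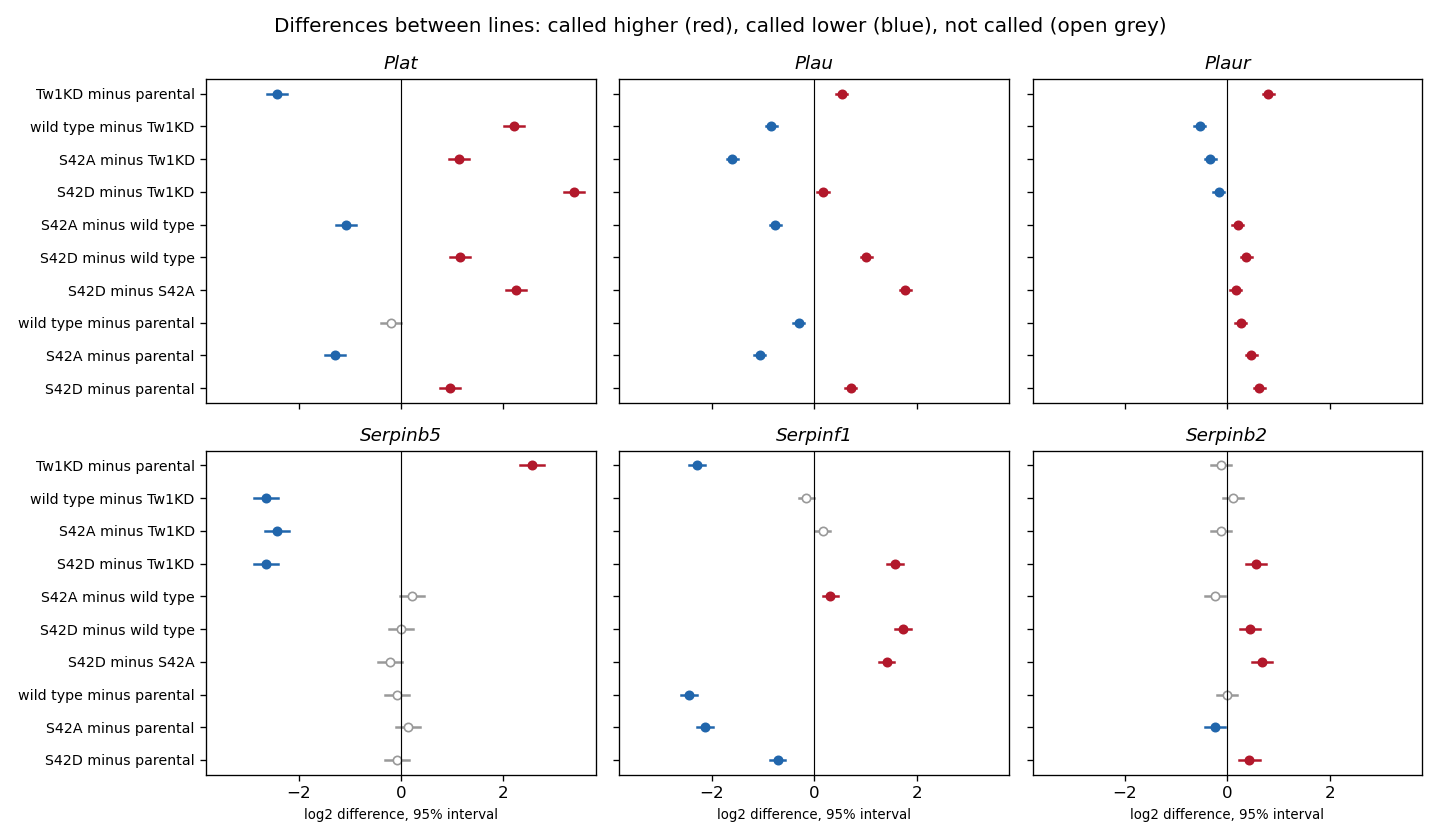
Log2 difference (x axis) of the 6 genes in each of the 10 comparisons between lines (rows, the first-named line minus the second); dots are fitted differences and bars 95% intervals, filled red where called higher, filled blue where called lower and open grey where not called. Plat and Plau lie on opposite sides of 0 for Tw1KD against parental cells, and both lie to the right for S42D against each other line.

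Tw1KD cells differed from parental cells in 5 of the 6 genes, with Plau, Plaur and Serpinb5 higher and Plat and Serpinf1 lower, where 36.3% of all genes were called (19.9% higher, 16.4% lower). The arrays of both lines did not overlap for these 5 genes, nor for 41.6% of all genes. The median size of the 6 differences was 1.55, against 0.12 over all genes. Because the genes were chosen with earlier results of these data known, this size and the share called cannot show that they stand out. The wild-type Twist1 line differed from Tw1KD in 4 of 6, Plat higher and Plau, Plaur and Serpinb5 lower, where 48% of all genes were called (23.5% higher, 24.5% lower) and the arrays of 53.9% did not overlap. The S42A line differed from Tw1KD in 4 of 6, Plat higher and Plau, Plaur and Serpinb5 lower, where 42.5% of all genes were called (22.8% higher, 19.7% lower) and the arrays of 46.8% did not overlap. The S42D line differed from Tw1KD in all 6, with Plat, Plau, Serpinb2 and Serpinf1 higher and Plaur and Serpinb5 lower, where 43.4% of all genes were called (21.7% in each direction) and the arrays of 49.3% did not overlap. These comparisons share the Tw1KD arrays.

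The lines with constructs differed from each other in the protease genes and in Serpinf1. S42A was lower than wild-type Twist1 in Plat by 1.08 ± 0.091 on the log2 scale, a difference of -1.08 (2.11-fold, adjusted p = 2.7e-07), and in Plau with a difference of -0.76 ± 0.050 (1.69-fold, adjusted p = 2.0e-08). It was higher in Plaur by 0.21 ± 0.049 (adjusted p = 0.0035) and in Serpinf1 by 0.32 ± 0.071 (adjusted p = 0.0021). These were 4 of 6 genes, where 40% of all genes were called (20% in each direction) and the arrays of 51.5% did not overlap. The Twist1 probe set itself was higher in S42A than in wild-type Twist1 cells by 0.37 ± 0.080. It was also higher in S42D cells, by 0.67 ± 0.080 over wild-type Twist1 and by 0.29 ± 0.080 over S42A, and the part of Twist1 level in the differences between constructs was not tested.

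S42D exceeded wild-type Twist1 in 5 of the 6 genes, where 43.3% of all genes were called (20.7% higher, 22.6% lower) and the arrays of 53.4% did not overlap. The differences were 1.16 ± 0.091 for Plat (2.23-fold), 1.01 ± 0.050 for Plau (2.02-fold), 1.73 ± 0.071 for Serpinf1 (3.32-fold), 0.37 ± 0.049 for Plaur and 0.44 ± 0.092 for Serpinb2. S42D also exceeded S42A in Plat, Plau, Plaur, Serpinb2 and Serpinf1, where 36.1% of all genes were called (17.1% higher, 19.1% lower) and the arrays of 46.2% did not overlap. Of the pairs of constructs, this one had the largest differences in both protease genes, Plat by 2.24 ± 0.091 (4.72-fold, adjusted p = 1.3e-10) and Plau by 1.78 ± 0.050 (3.42-fold, adjusted p = 2.6e-12). Serpinf1 differed by 1.41 ± 0.071 (2.67-fold), less than the 1.73 of S42D over wild-type Twist1. Plaur differed by 0.16 ± 0.049 (adjusted p = 0.019); its call was lost with median centring (0.083, adjusted p = 0.24), with these lines fitted alone (adjusted p = 0.078), without S42A replicate 1 (0.11, adjusted p = 0.098) and without S42D replicate 3 (0.14, adjusted p = 0.073). The median of the 6 differences was 1.05 for S42D against S42A, against -0.034 over all genes, with the same limit from how the genes were chosen.

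Set against parental cells, the wild-type Twist1 line differed in 3 of 6 genes (Plau, Plaur and Serpinf1), where 49% of all genes were called (25% higher, 24% lower) and the arrays of 58.8% did not overlap. Its largest difference was in Serpinf1, at -2.44 ± 0.071 or 5.44-fold (adjusted p = 4.4e-12). The S42A line differed from parental cells in 5 of 6 genes, where 40.3% were called (22.6% higher, 17.7% lower) and the arrays of 48.1% did not overlap, with Serpinf1 at -2.13 ± 0.071. Serpinb2, dim in every line, was among the 5 at -0.25, with overlapping arrays and a call lost under 9 alternatives. The S42D line also differed in 5 of 6, where 37% were called (19.8% higher, 17.2% lower) and the arrays of 47.9% did not overlap; Plat, Plau, Plaur and Serpinb2 were higher there and Serpinf1 was lower.

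Other genes of the plasmin system came from a list of 22, of which 18 were measured. Plasminogen itself (Plg) averaged 5.81 to 5.94 in the 5 lines, and the plasmin inhibitor gene Serpinf2 6.58 to 6.66; limma called neither in any of the 10 comparisons, and Plg had an unadjusted p under 0.05 in 1 of them (S42A against wild-type Twist1). In Tw1KD against parental cells 2 of 18 were called higher and 2 lower (Itgav, Plgrkt, Itgb1 and S100a10), or 22.2%, where 36.3% of all genes were called. Of these Itgb1, the beta-1 integrin chain, moved most (-0.40 ± 0.042), and 2 of 18 were called in all with these lines fitted alone and without parental replicate 3, Tw1KD replicate 1 or Tw1KD replicate 3. The median difference of the list was -0.040, against 0.0051 over all genes.

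Among the plasmin system genes S42D differed from S42A in 8 of 18 (7 higher, 1 lower), from wild-type Twist1 in 8 (7 higher, 1 lower) and from Tw1KD in 8 (6 higher, 2 lower). Each count is 44.4% of the list, where 36.1%, 43.3% and 43.4% of all genes were called in these comparisons. Mrc2, an endocytic collagen receptor that associates with the urokinase receptor, had 8.26, 8.34 and 8.23 in S42D cells, 6.50, 6.43 and 6.15 in S42A cells and 6.28, 6.51 and 6.35 in wild-type Twist1 cells, against 6.48, 6.53 and 6.52 in Tw1KD and 6.60, 6.68 and 6.60 in parental cells. The S42D arrays were above all others, by 1.91 ± 0.079 over S42A (3.77-fold, adjusted p = 1.6e-10) and 1.65 ± 0.079 over parental cells (3.14-fold). Serpini1 (neuroserpin), an inhibitor of tissue-type plasminogen activator, had 6.29, 5.88 and 5.98 in S42D cells, where Plat was highest, and line means of 4.73 to 5.09 in the others. It was higher in S42D than in wild-type Twist1 by 1.31 ± 0.11 (2.47-fold, adjusted p = 1.7e-07).

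Genes of surface proteins that hold plasminogen were also on the list. With wild-type Twist1 against Tw1KD, 2 of 18 were called higher and 5 lower, or 38.9%, where 48% of all genes were called. Anxa2, the annexin chain of a plasminogen and tissue-type activator receptor, rose by 0.45 ± 0.039 (adjusted p = 2.3e-07), and its partner gene S100a10 by 0.24 ± 0.041. Itgb3, the beta-3 integrin chain, fell by 0.62 ± 0.064 there and by 0.87 ± 0.064 with S42A, and averaged 8.96 in S42D cells, 8.36 in S42A cells and 8.61 in wild-type Twist1 cells, against 9.23 in Tw1KD and 9.29 in parental cells. With S42A against Tw1KD, 4 of 18 were called higher and 4 lower, where 42.5% of all genes were called, and Plgrkt, a membrane plasminogen receptor, fell by 0.38 ± 0.067 (adjusted p = 0.00029). With S42A against wild-type Twist1, 4 were called higher and 1 lower, where 40% of all genes were called, with Itgb1 higher by 0.37 ± 0.042; 3 of 18 were called in all without wild-type replicate 3 or S42A replicate 2, and 9 with array weights.

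Plasmin and its activators can act on several growth factors. All 8 genes listed for this were measured, and whether these proteases act on each product was not examined here. In Tw1KD against parental cells 1 was called higher (Mst1) and 4 lower (Tgfb2, Pdgfc, Vegfc and Bdnf), where 19.9% of all genes were called higher and 16.4% lower, with a median difference of -0.48, against 0.0051 over all genes. Pdgfc, a platelet-derived growth factor gene whose product tissue-type activator can cut, had 11.04, 10.94 and 10.95 in S42D cells, 8.60, 8.67 and 8.61 in S42A cells and 5.55, 5.35 and 5.66 in wild-type Twist1 cells, against 6.50, 6.58 and 6.36 in Tw1KD and 9.10, 9.01 and 9.05 in parental cells. The 5 lines did not overlap, and Pdgfc was lowest with wild-type Twist1. It fell by 2.58 ± 0.073 on depletion (5.97-fold) and by a further 0.96 ± 0.073 with wild-type Twist1 against Tw1KD (1.94-fold, adjusted p = 5.6e-08), where Plat rose.

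With S42A, Pdgfc rose by 2.15 ± 0.073 over Tw1KD and with S42D by 4.50 ± 0.073 (22.6-fold, adjusted p = 7.8e-15). S42D exceeded wild-type Twist1 in Pdgfc by 5.46 ± 0.073, or 43.9-fold. Tgfb2, a transforming growth factor gene, rose over Tw1KD by 2.76 ± 0.090 with S42D, by 1.75 ± 0.090 with S42A and by 1.27 ± 0.090 with wild-type Twist1. Vegfc, a lymphatic growth factor gene whose product plasmin can cut, rose by 1.78 ± 0.086 with S42D, 2.54 ± 0.086 with S42A and 2.43 ± 0.086 with wild-type Twist1. It was lower in S42D than in S42A by 0.76 ± 0.086, a difference of -0.76 (adjusted p = 5.9e-06), unlike Plat, Plau and Pdgfc. Mst1, the gene of macrophage-stimulating protein, rose on depletion by 0.81 ± 0.095 and fell against Tw1KD with each construct, by 0.86 ± 0.095 with S42D, 0.80 ± 0.095 with S42A and 0.54 ± 0.095 with wild-type Twist1.

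**Figure D3:**
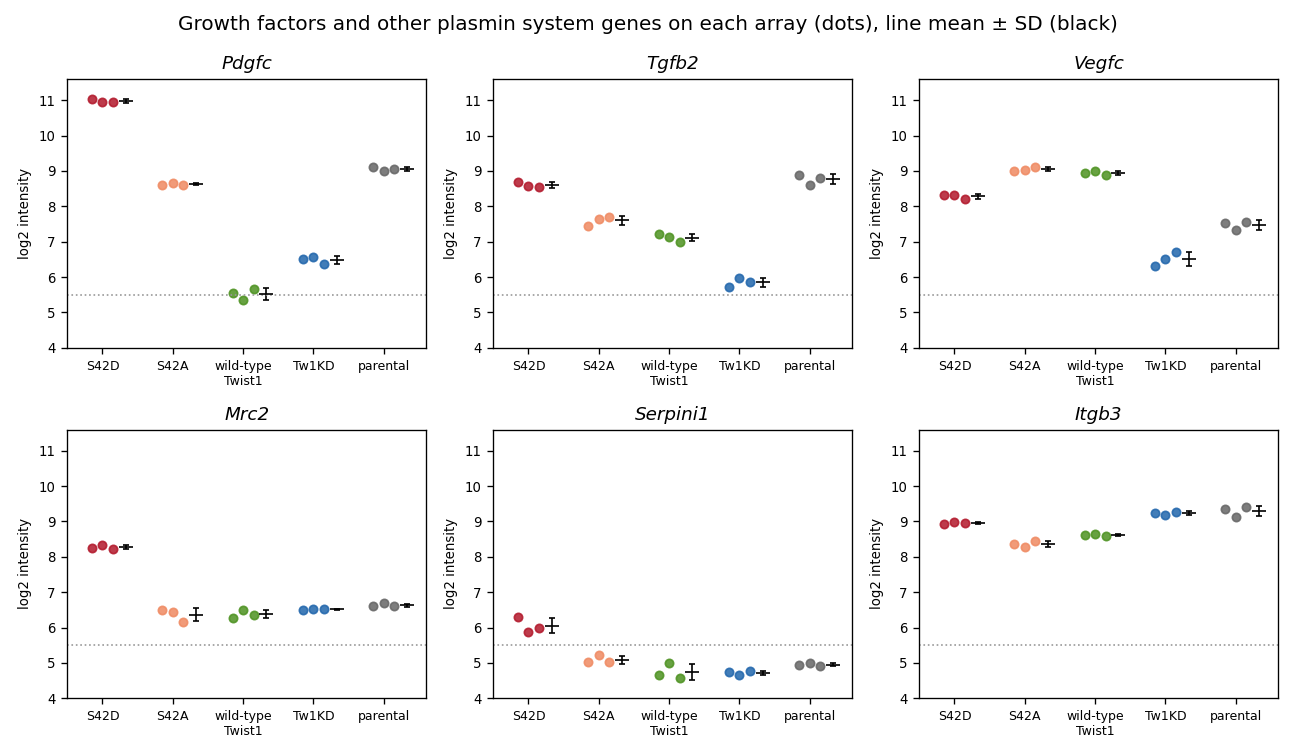
Log2 intensity (y axis) of 6 further genes on each array, in the S42D, S42A, wild-type Twist1, Tw1KD and parental lines; dots are the 3 arrays, black bars the line mean ± SD, and the dotted line the dim limit of 5.50. Pdgfc runs over a wide range with the lowest level in wild-type Twist1 cells, and Mrc2 and Serpini1 are high in S42D cells.

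Serpinb5 and Serpinb2 belong to clade B, intracellular serpins that lie in gene clusters. In the order of assembly GRCm38.p6, 11 measured clade B genes lie on chromosome 1, from Serpinb5 at one end to Serpinb8 at the other. Of these 9 were dim in every line, Serpinb2 among them, and the line means of both end genes spanned over 1 log2. Serpinb8 had 9.82, 9.64 and 9.78 in S42D cells, 5.81, 5.97 and 5.88 in S42A cells and 8.54, 8.60 and 8.59 in wild-type Twist1 cells, against 5.58, 5.44 and 5.32 in Tw1KD and 6.64, 6.52 and 6.73 in parental cells. The lines did not overlap. Where Serpinb5 rose on depletion, Serpinb8 fell by 1.18 ± 0.073 (2.27-fold, adjusted p = 1.1e-08), and it rose over Tw1KD by 4.30 ± 0.073 with S42D, 3.13 ± 0.073 with wild-type Twist1 and 0.44 ± 0.073 with S42A.

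A further 11 measured clade B genes lie on chromosome 13, of which 6 were dim in every line and 4 spanned over 1 log2. Serpinb9b averaged 10.30 in S42D cells, 9.06 in S42A cells and 10.75 in wild-type Twist1 cells, against 7.47 in Tw1KD and 7.17 in parental cells. Serpinb9, the gene of a granzyme B inhibitor, averaged 8.12, 7.65 and 8.72 in the S42D, S42A and wild-type lines, against 5.83 in Tw1KD and 6.93 in parental cells. Serpinb6b averaged 8.25 in S42D cells, 6.13 in S42A cells and 8.69 in wild-type Twist1 cells, against 6.07 in Tw1KD and 6.99 in parental cells. S42A was lower than wild-type Twist1 in 7 of the 20 other clade B genes (13 were not called), where 20% of all genes were called lower; the 3 largest were Serpinb8 (-2.69 ± 0.073), Serpinb6b (-2.56 ± 0.11) and Serpinb9b (-1.68 ± 0.12). The S42D line was also lower than wild-type Twist1 in 7 of the 20 and higher in 1, where 22.6% of all genes were called lower and 20.7% higher. With wild-type Twist1 against parental cells, 8 of the 20 were called higher and 0 lower, where 25% of all genes were called higher and 24% lower. Serpinb9b, Serpinb6b and Serpinb9c belong to families of closely similar mouse genes, so which copy a probe set reads is uncertain.

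**Figure D4:**
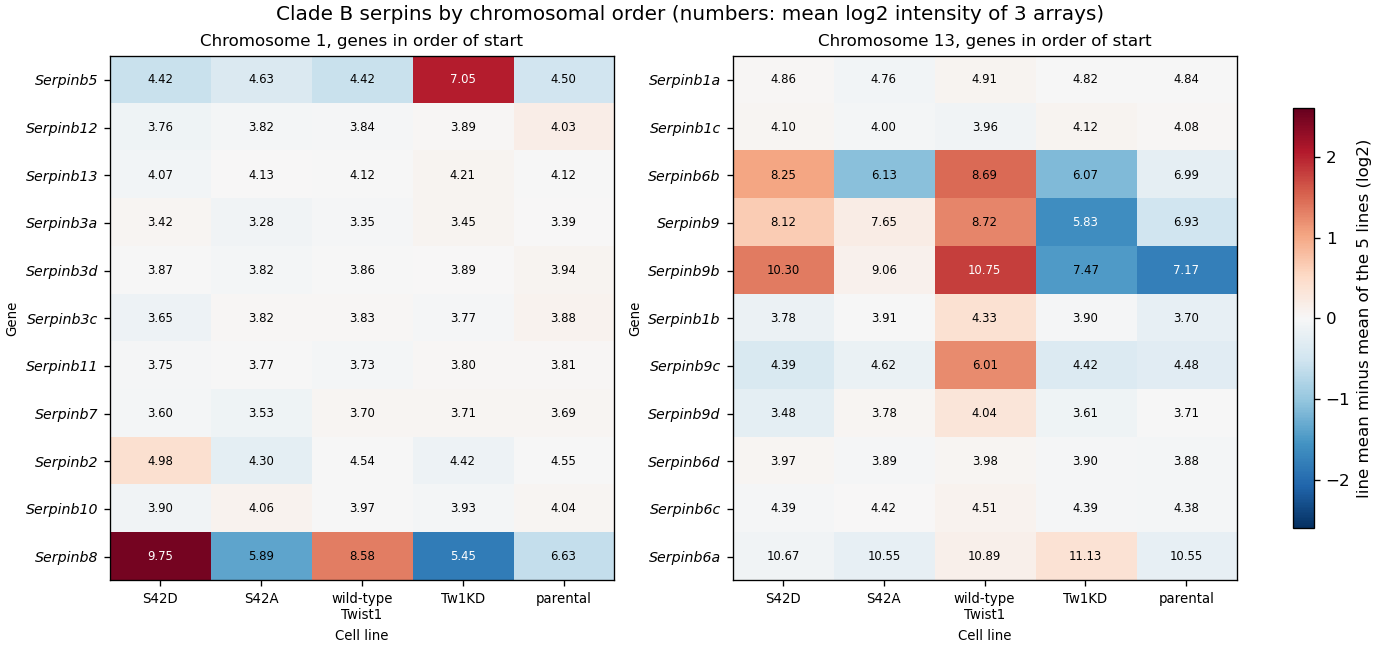
Clade B serpin genes in their order along chromosomes 1 and 13 (rows) in the S42D, S42A, wild-type Twist1, Tw1KD and parental lines (columns); the numbers are mean log2 intensities of 3 arrays and the colour is the line mean minus that gene's mean over the 5 lines. On chromosome 1 colour is strong for Serpinb5 and Serpinb8 at the ends of the cluster, and 9 genes between them are dim in every line.

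Of the serpins of other clades, 15 of 24 listed were measured. Serpinh1, a collagen chaperone rather than a protease inhibitor, fell by 0.40 ± 0.040 on depletion and rose over Tw1KD by 0.58 ± 0.040 with S42D, 0.54 ± 0.040 with S42A and 0.25 ± 0.040 with wild-type Twist1. At most 3 of the 15 were called in any comparison, where 36.1% to 49% of all genes were called, and up to 7 under other settings.

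The genes whose patterns were most like each member were taken by Pearson correlation over the 15 arrays, among 2486 genes with line means spanning at least 1 log2, the members and all other listed genes left out; the arrays of a line share their cells, so these values are descriptions. For Plat they were Glipr1 (r = 0.986), Tmem263 (0.982) and Dhrs9 (0.969). For Plau they were Arhgef3 (0.997), Cdk18 (0.985) and the chemokine scavenger receptor gene Ackr3 (0.969). Arhgef3 averaged 9.78 in S42D cells, 6.77 in S42A cells and 8.09 in wild-type Twist1 cells, against 9.50 in Tw1KD and 8.71 in parental cells, in the same order as Plau. For Plaur they were Lat2 (0.954), Slc25a43 (0.916) and Crybg3 (0.916), and for Serpinb2 Cyth4 (0.934), 4933431E20Rik (0.897) and Psd2 (0.891).

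For Serpinb5 they were the folate receptor gene Folr1 (0.992), the dipeptidase gene Dpep1 (0.988) and the lipoxygenase gene Aloxe3 (0.986). Folr1 averaged 8.91 in Tw1KD cells and 5.59 to 6.09 in the other lines. For Serpinf1 they were Susd4 (0.984), the fibroblast growth factor receptor gene Fgfr1 (0.982) and Exoc7 (0.980), with Fgfr1 at 8.42 in S42D cells, 6.92 in S42A cells and 6.86 in wild-type Twist1 cells, against 6.77 in Tw1KD and 9.80 in parental cells. Among the members themselves, Plat and Plau correlated at 0.20, Plau and Plaur at 0.40, and Plat and Serpinb5 at -0.81.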

How the data were processed

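Total RNA was labelled with biotin from 100 ng per sample and measured on arrays. The authors deposited log2 intensities, 1 per probe set for 34760 probe sets; the unit was read from the values. R 2.10.0 and affy are named, per the submitters' processing notes, without saying what each did; background correction, scaling and summary are not given in the sources used here, and scaling removes any change common to all transcripts. Symbols were updated by gene number against GRCm38.p6 (21553 of 21640 probe sets with 1 symbol matched).

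A mean per line was fitted to 15 arrays in limma 3.58.1 under R 4.3.3 (eBayes, 2-sided, Benjamini-Hochberg over 19937 genes, adjusted p under 0.05) for 10 comparisons. The fit was tested on simulated data. Named genes are all members, Twist1, Plg, Serpinf2, from each list up to 3 called genes per direction in each main comparison, further values of those genes, and the 3 genes most like each member. The members and lists were chosen with earlier results of these data known. Same-numbered replicates deviated from their line means with correlations of -0.39 to 0.42, so the numbers were not taken as pairs. Alternatives were median centring, quantile normalization, cyclic loess, a filter on dim genes, mean or all probe sets, trend and robust estimation, array weights, the replicate block, a fit of the lines compared alone and leaving out each replicate; for lists they were added after seeing the data.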

Additional observations from a re-analysis of the deposited data

Results flagged for a closer look

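Levels differed between the lines with different constructs, by limma's test of the difference itself, in 14 cases. Of all genes, 40% were called for S42A minus wild-type Twist1, 43.3% for S42D minus wild-type Twist1 and 36.1% for S42D minus S42A. Because the members were chosen with earlier results of these data known, the count cannot show that they stand out. For S42A minus wild-type Twist1 the differences were -1.08 for Plat, -0.76 for Plau, 0.21 for Plaur and 0.32 for Serpinf1. For S42D minus wild-type Twist1 they were 1.16 for Plat, 1.01 for Plau, 0.37 for Plaur, 0.44 for Serpinb2 and 1.73 for Serpinf1. For S42D minus S42A they were 2.24 for Plat, 1.78 for Plau, 0.16 for Plaur, 0.68 for Serpinb2 and 1.41 for Serpinf1. The Plaur call in S42D minus S42A was lost under 4 alternatives. With 3 arrays per line, no search for outlying arrays was made.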

How the results depend on the processing

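The count of called members stayed within 1.5 times its reported value under all 16 alternatives in each of the 10 comparisons, as did the count of called genes. Of the recomputed member differences, 900 kept direction and call, 16 lost a call, 21 gained one and 13 changed sign. All that changed sign were uncalled and belonged to Serpinb5 or Serpinb2, near the background. Serpinb5 in S42D minus wild-type Twist1 became 0.024 with array weights and ranged from -0.059 to 0.064 on leaving out arrays. In wild-type Twist1 minus parental, with median centring, quantile normalization and cyclic loess, Serpinb2 became 0.092, 0.080 and 0.066 and Serpinb5 0.024, 0.017 and 0.0098; Serpinb2 ranged from -0.10 to 0.040 on leaving out arrays. Serpinb5 in S42D minus parental became 0.0079 with quantile normalization. Same-numbered replicates deviated together in some pairs of lines only, with a correlation over 0.1 in 7 of 30 pairs and up to 0.42 between Tw1KD and parental cells. The replicate block changed 1 member call: Serpinb2 in S42A minus wild-type Twist1 (-0.24) was called at adjusted p = 0.044, as under 7 other alternatives. Median centring moved the median of all genes by 0.10 in wild-type Twist1 minus parental. With it, the share of calls that were higher became 65.2% against 54.8% for Tw1KD minus parental, 39.5% against 50% for S42D minus Tw1KD, 33.2% against 47.9% for S42D minus wild-type Twist1, 30% against 47.2% for S42D minus S42A, 68.4% against 51% for wild-type Twist1 minus parental and 71.7% against 56.1% for S42A minus parental. With dim genes left out Serpinb2 gives no value. List counts moved by over 1.5 times in 60 cases, 47 of them among serpins of other clades, whose count ranged from 2 to 7 for wild-type Twist1 minus Tw1KD and for S42D minus Tw1KD, 1 to 7 for S42D minus wild-type Twist1 and 0 to 5 for S42D minus S42A; the plasmin system count ranged from 2 to 6 for Tw1KD minus parental and from 3 to 9 for S42A minus wild-type Twist1, and the clade B count from 6 to 11 for S42A minus wild-type Twist1. The cause was not tested.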
